A study of Mus musculus with 4 samples.

Results

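The values below set the luminal epithelium of the control mouse uterus, the sheet of cells that faces the uterine cavity, against the stroma, the connective tissue beneath it. Each side is 1 RNA sequencing library of cells cut out by laser capture microdissection on day 4 of pseudopregnancy, a hormonal state set up by mating with a vasectomized male, so that no embryo was present. The 2 control libraries are labelled Msx1f/f/Msx2f/f, with floxed and undeleted Msx1 and Msx2. The other 2 libraries, 1 for each compartment, are labelled Msx1d/d/Msx2d/d, a knockout specific to the uterus, and they serve here as a second measurement of the same contrast in another genotype. The series text speaks of a single mouse of each genotype. The labels used here name neither the Cre driver, the strain nor the age in weeks, and they do not say whether both compartments were cut from the same uterus. Each group therefore had 1 library, no value has a replicate error, and no test over samples was run.

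The genes were chosen by level. Of 23235 genes listed, 9338 reached 1 RPKM (reads scaled to transcript length and to mapped reads) in at least 1 of the 2 control libraries. Of these, 5565 reached it in both libraries, 1816 in luminal epithelium alone and 1957 in stroma alone. For each gene the difference was log2((epithelium + 1)/(stroma + 1)), less 0.30, the median of this value over the 5565 genes. This centring was needed because the authors scaled the tables of the 2 compartments separately. A gene was called higher on a side when the centred difference was at least 1 in size, and a difference of 3 corresponds to 8-fold on that scale. Levels are given as deposited, without centring, and a level compared across the compartments carries the separate scaling of the tables.

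The luminal epithelium is a polarized, secretory and absorptive sheet whose cells are sealed by tight junctions. The stroma holds fibroblasts that produce matrix and respond to progesterone, together with vessels and leukocytes. In mice the compartments exchange signals before embryo attachment. Epithelial Indian hedgehog acts on receptors in the stroma, stromal factors such as Hand2 restrain growth factor signals to the epithelium, and progesterone and oestrogen act on receptors in both compartments. Msx1 and Msx2 are homeobox transcription factors known to be active in the uterus shortly before implantation.

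By estimate the luminal epithelium control held 6.28 M reads and the stroma control 42.7 M, 6.8 times as many. A transcript of 2 kb of effective length at 1 RPKM then stands for about 12.6 reads in the epithelium and 85.3 in the stroma. Limits quoted with a ratio of levels are 95% exact (Clopper-Pearson) limits from those reads. Being approximate, they cover counting error alone and leave out how mice vary. For a gene listed at 0 in a library no fold is given, absence is not inferred, and the centred difference rests on the pseudocount.

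Defining markers of the labelled tissues were checked first. Of 14 epithelial markers, 14 were called higher in the luminal epithelium, with a summed level of 497 RPKM there and 2.78 RPKM in stroma. For the 13 of these listed above 0 in stroma, the median stromal level was 0.399% of the epithelial level. Of 16 stromal markers, 15 reached 1 RPKM, and 14 of them were called higher in stroma. The exception was Mme, which encodes the peptidase neprilysin, at 100.3 RPKM in luminal epithelium and 1.77 in stroma. Over the 15 the median epithelial level was 4.2% of the stromal level. Markers of glands were near the floor on both sides, with Foxa2, the defining gland factor, at 0.0881 RPKM in epithelium and 0.0922 in stroma, and 1 of the 10 gland markers, Ltf, reaching 1 RPKM. No erythrocyte marker reached 1 RPKM in either library.

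Markers of cells other than fibroblasts were read in the stromal capture. All 13 endothelial markers kept were called higher in stroma, and 7 of them were listed at 0 in epithelium, Esam, Emcn and Kdr among them. Each of the 13 reached 1 RPKM in stroma alone, and the 7 at 0 are stromal calls by construction. The count of calls is therefore no separate check. Over all 15 endothelial markers, without the filter, the sums were 62.9 RPKM in stroma and 0.711 in epithelium. The endothelial level summed over those 13 was 61.1 RPKM in stroma and 0.711 in epithelium. Of 19 leukocyte markers kept, 18 were called higher in stroma, with sums over the 19 of 215 RPKM in stroma and 32.6 RPKM in epithelium, led by Cd74 at 52.1 and 6.36 RPKM. Of 5 smooth muscle markers kept, 4 were called higher in stroma, with sums over the 5 of 22.4 and 3.93 RPKM. In such bulk captures a change in the number of cells of a type and a change in RNA per cell cannot be told apart. The share of each cell type in a gene's stromal value was not tested.

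In the control pair, 1107 of 9338 genes were called higher in luminal epithelium, 11.9% of the genes compared, and 1768 were called higher in stroma, 18.9%. Every list count below is to be read against these shares of all genes, which themselves varied with level. Among named genes at 1 to 2 RPKM in the higher library, 0.89% were called epithelial and 20.7% stromal. At 2 to 5 RPKM the shares were 8.15% and 17.3%, and at 5 to 20 RPKM 29.8% and 14.3%. At 20 RPKM or more they were 37.7% and 21.5%. The shares of all genes are not matched to the level of a list, which limits every such comparison. At 8-fold or more the counts were 161 (1.72%) and 225 (2.41%). Named genes made up 143 of the 161 and 106 of the 225, the rest being small RNA or unnamed gene models. The median centred difference over all kept genes was -0.06, and the middle 50% ran from -0.69 to 0.47. The split between the sides depended on level and scaling. The epithelial side held 38.5% of the calls here, 56.1% without centring and 61.0% when 5 RPKM was required in at least 1 library (783 higher in epithelium and 500 in stroma). Part of this is set by the measure itself. A gene listed at 0 in stroma needs 1.46 RPKM in epithelium to be called. A kept gene listed at 0 in epithelium is called stromal by construction, since 1 RPKM in stroma suffices, and 342 of the 1768 stromal calls were of this kind. Without centring the median of all kept genes moved by 0.30 on the log2 scale, against shifts of 0.06 to 0.14 under the other 3 scalings. Among the stromal calls, 232 were small RNA or unnamed gene models, 161 of them listed at 0 in epithelium.

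**Figure D1:**
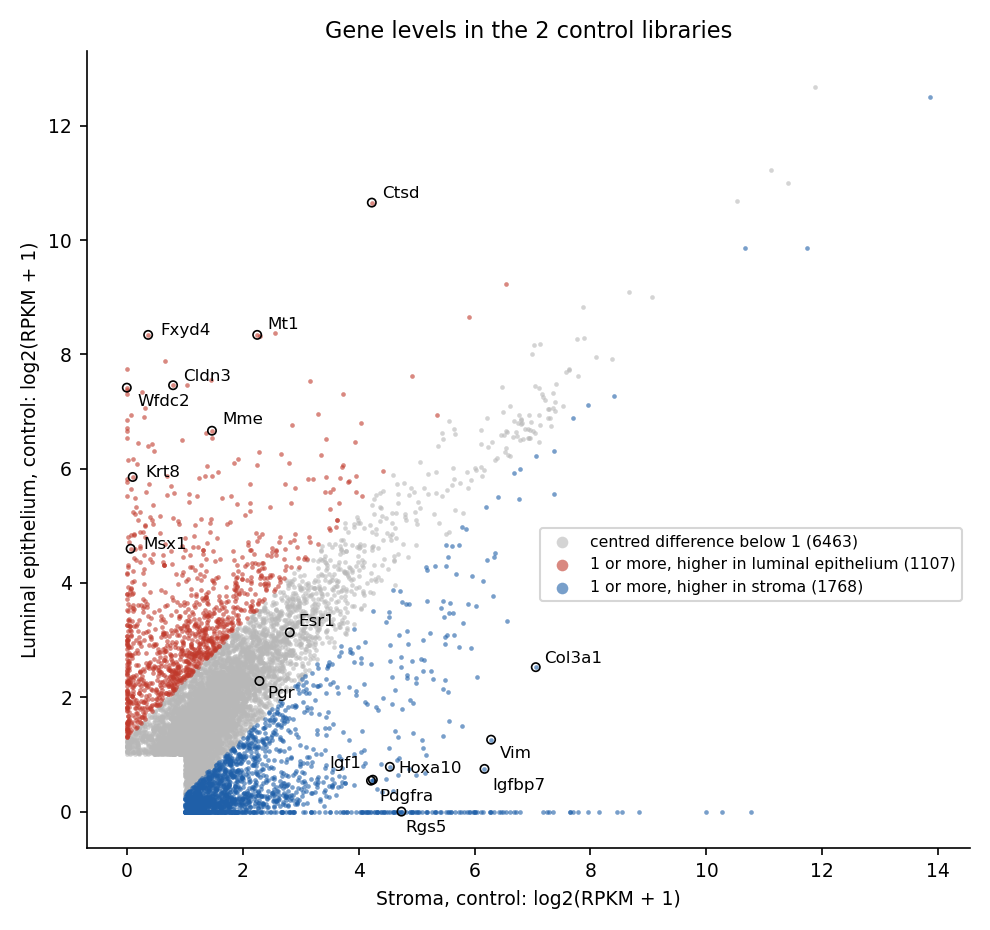
Level of each of the 9338 genes as log2(RPKM + 1), stroma control on the horizontal axis and luminal epithelium control on the vertical axis, 1 point a gene, red where called higher in epithelium (1107), blue where called higher in stroma (1768) and grey otherwise. Circled genes are named in the text, with Fxyd4 and Wfdc2 at the upper left, Col3a1, Vim and Igfbp7 at the lower right, and Pgr and Esr1 near the diagonal.

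Msx1 was an epithelial gene in these libraries. It stood at 23.2 RPKM in the luminal epithelium control and 0.0467 RPKM in the stroma control, a ratio of 498 (limits 180 to 2102) and a centred difference of 4.23. Msx1 lies on chromosome 5 from 38211730 to 38215824 (build mm9). In the libraries labelled knockout it was listed at 13.6 RPKM in epithelium and 0.0207 RPKM in stroma, so Msx1 was still listed in epithelium under that label. The antisense entry Msx1as has the same coordinates. It was at 39.0 RPKM in epithelium and 0.115 in stroma in the control pair, and at 2.15 and 0.0353 RPKM in the pair labelled knockout. Whether the Msx1 reads under the knockout label come from outside a deleted part was not analysed here, and the label is used below as given. Msx2 (chromosome 13, 53562250 to 53568149) was low, at 1.31 RPKM in epithelium and 0.135 in stroma, and was not called (0.72).

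The widest epithelial lead was that of Fxyd4. Fxyd4, a regulator of the sodium pump, ranked first with 323 RPKM in luminal epithelium and 0.291 in stroma (centred difference 7.67). Its locus is chromosome 6, 117883577 to 117887353 (mm9). Wfdc2, a secreted whey acidic protein family member, stood at 170 RPKM and was listed at 0 in stroma. The metallothioneins, small metal-binding proteins, followed a like pattern, Mt2 at 234 and 0.570 RPKM (6.92) and Mt1 at 323 and 3.75 RPKM (5.79). Hdc, which makes histamine, was at 162 and 0.203 RPKM (6.78). Lrp2, the endocytic receptor megalin, was at 122 and 0.0524 RPKM (6.57), and the lysosomal protease gene Ctsd reached 1611 RPKM against 17.7 (6.13). The calcium-binding proteins S100g and Calb1 stood at 176 and 1.06 RPKM (6.12) and at 69.8 and 0.0181 RPKM (5.82). The other genes of the first 15 were Npl, Cldn3, Slc25a48, Acot7, Mab21l3 and Rnf128, with centred differences from 5.73 for Rnf128 to 6.44 for Npl. All 15 were also called higher in epithelium in the pair labelled knockout, with differences from 5.67 (Mab21l3) to 8.55 (Fxyd4).

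Igfbp7, a secreted binding protein, had the widest stromal lead. It stood at 71.1 RPKM in stroma and 0.679 in luminal epithelium (-5.72), a ratio of 105 in favour of stroma (limits 41.2 to 378). Vim, the intermediate filament protein of mesenchymal cells, was at 77.0 RPKM in stroma and 1.39 in epithelium (-5.33), and the fibrillar collagen gene Col3a1 was at 132 and 4.76 RPKM (-4.83). Rgs5, known from pericytes, was at 25.7 RPKM in stroma and listed at 0 in epithelium. Igj, the joining chain of secreted antibodies, was at 34.4 RPKM in stroma and 0.594 in epithelium (-4.77), a product of plasma cells rather than fibroblasts. The rest of the first 15 were Col4a1, Sparc, Fstl1, Igfbp4, Hist1h1b, Dcn, Cd34, Nid1, Fn1 and Col1a2, between -4.65 for Col4a1 and -4.26 for Col1a2. All 15 were called higher in stroma in the pair labelled knockout too, from -3.41 (Col4a1) to -6.29 (Sparc).

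Transcription and splicing factors of epithelial identity followed the capture. Of 26 listed, 13 reached 1 RPKM, and 11 were called higher in luminal epithelium and 0 in stroma (median 2.83, against -0.06 for all genes). Tfcp2l1, of the grainyhead-related family, was at 30.8 and 0.238 RPKM (4.38), and its relative Grhl2 at 6.53 and 0.0188 RPKM (2.59). Sox17, a factor needed for uterine receptivity, stood at 44.8 RPKM in epithelium and 1.32 in stroma (4.00). The epithelial ETS factors Ehf and Elf3 stood at 15.2 and 0.0604 RPKM (3.63) and at 11.4 and 0.0122 RPKM (3.32). Esrp1, which sets epithelial splicing patterns, was at 13.9 and 0.0525 RPKM (3.53), and Pax8, Klf5, Esrp2 and Rbm47 ranged from 1.27 to 2.83. Pax2, at 1.28 RPKM in epithelium, was listed at 0 in stroma and did not reach the call.

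The mesenchymal factors that repress epithelial genes lay on the other side. Zeb2 was at 3.79 RPKM in stroma and 0.226 in epithelium (-2.27), Zeb1 at 2.22 and 0.137 RPKM (-1.8), Snai2 at 2.60 and 0.155 RPKM (-1.94), and Snai1 at 1.8 RPKM in stroma and listed at 0 in epithelium. These zinc finger proteins are known to bind the E-box CACCTG. In the 250 bases upstream of annotated starts (RefSeq, GRCm38.p6, matched by RefSeq identifier), this motif was searched on both strands, after the levels of its binders were seen. It was found in 17.2% of the 32851 starts in the sequence table and in 14.2% of 7324 kept genes. Among genes called higher in luminal epithelium it was found in 23.5% (198 of 844 with a sequence). The share was 11.4% (140 of 1232) among those called higher in stroma and 13.3% among kept genes not called. Among genes at least 8-fold higher in luminal epithelium it was found in 35.4% (40 of 113 with a sequence), and among those at least 8-fold higher in stroma in 9.72% (7 of 72). In the shares that follow, epithelial and stromal genes are those at 8-fold or more. Base composition was close, with median GC contents of 60% for kept genes, 58.0% for the epithelial genes and 57.2% for the stromal genes. Below 50% GC the shares were 21.7% of epithelial genes (5 of 23) and 11% of 1089 kept genes. At GC contents from 50% to 60% the shares were 41.9% of 43 epithelial genes and 14.7% of 2465 kept genes. From 60% to 70% they were 46.7% of 30 and 15.2% of 2557. Above 70% GC they were 17.6% (3 of 17) and 13.8% of 1213. The related E-box CAGCTG had another distribution, with 10.8% of kept genes, 15.9% of the epithelial and 25% of the stromal genes. In all 5 motifs were searched. CACGTG was found in 8.52% of kept genes, 7.08% of the epithelial and 2.78% of the stromal genes, TGCACNC in 10.1%, 15.9% and 5.56%, and TGCGCNC in 22.7%, 13.3% and 12.5%. These are shares of letters in a window, not sites shown to be bound. The gene sets were drawn from the same control levels, and no test was run on the shares. Whether the motif, its binders or base composition bear on those levels was not tested.

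The upstream windows of 5 epithelial genes that carry the motif are shown because their products define the compartment in these data: a transport regulator, a secreted protein, a keratin, a cell adhesion protein and a transcription factor. Capitals mark CACCTG or, where it lies on the other strand, CAGGTG. The windows are Fxyd4 chr6:117937336-117937585 (minus strand), Wfdc2 chr2:164562465-164562714 (plus), Krt8 chr15:102004343-102004592 (minus), Epcam chr17:87635729-87635978 (plus) and Elf3 chr1:135258473-135258722 (minus), all GRCm38.p6 from RefSeq and printed 5′ to 3′ on the strand of the gene, ending at the base before the annotated start. Epcam holds 2 matches and each of the others 1.
Fxyd4: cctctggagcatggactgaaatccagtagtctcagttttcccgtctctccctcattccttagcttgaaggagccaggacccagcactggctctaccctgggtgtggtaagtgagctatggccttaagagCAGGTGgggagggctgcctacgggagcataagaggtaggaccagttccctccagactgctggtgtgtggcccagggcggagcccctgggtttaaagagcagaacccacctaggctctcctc
Wfdc2: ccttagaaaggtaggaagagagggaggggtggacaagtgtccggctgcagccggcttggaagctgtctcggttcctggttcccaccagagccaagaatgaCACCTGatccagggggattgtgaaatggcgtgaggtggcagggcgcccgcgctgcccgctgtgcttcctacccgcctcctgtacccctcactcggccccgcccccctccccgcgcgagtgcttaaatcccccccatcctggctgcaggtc
Krt8: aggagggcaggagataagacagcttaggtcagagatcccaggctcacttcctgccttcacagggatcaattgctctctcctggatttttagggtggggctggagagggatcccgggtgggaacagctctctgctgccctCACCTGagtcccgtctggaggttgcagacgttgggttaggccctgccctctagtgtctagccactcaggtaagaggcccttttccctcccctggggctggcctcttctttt
Epcam: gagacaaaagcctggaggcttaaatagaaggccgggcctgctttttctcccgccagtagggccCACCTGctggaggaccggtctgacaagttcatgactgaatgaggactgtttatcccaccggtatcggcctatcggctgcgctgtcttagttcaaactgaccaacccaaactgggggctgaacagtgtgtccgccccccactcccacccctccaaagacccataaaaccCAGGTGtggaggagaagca
Elf3: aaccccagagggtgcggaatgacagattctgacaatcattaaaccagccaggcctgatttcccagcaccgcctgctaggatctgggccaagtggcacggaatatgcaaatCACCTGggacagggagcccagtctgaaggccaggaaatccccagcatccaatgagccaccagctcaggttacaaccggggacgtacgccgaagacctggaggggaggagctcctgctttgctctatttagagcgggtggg

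Keratins and junction proteins hold epithelial sheets together. Of 16 keratin genes, 6 reached 1 RPKM, 4 were called higher in luminal epithelium and 0 in stroma. Krt8, Krt18 and Krt19, which form the filaments of simple epithelia, were at 56.9, 47.2 and 43.8 RPKM in epithelium and at 0.0729, 0.262 and 0.106 RPKM in stroma. Of 24 tight junction and polarity genes kept, 17 were called higher in epithelium and 0 in stroma (median 1.73). Claudins led: Cldn3 at 175 and 0.739 RPKM (6.36), Cldn7 at 35.9 and 0.107 RPKM (4.76) and Cldn4 at 14.1 and 0.0480 RPKM (3.55). Other claudins, Cldn1, Cldn10 and Cldn12, were not called (0.24, 0.21 and -0.33). The scaffold gene Tjp1 was not called, with 6.39 and 4.05 RPKM, nor was the polarity gene Pard3, with 1.79 and 2.01 RPKM, whereas its relative Tjp3 was called (2.36). Of 6 desmosome genes kept, 5 were called higher in epithelium, Ppl and Perp in front at 8.54 and 5.65 RPKM.

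Adherens junctions join cells through cadherins and the catenins bound to them. Of 11 genes of this list kept, 3 were called higher in epithelium and 1 in stroma, and under other scalings 4 or 5 were called higher in epithelium. Cdh1, E-cadherin, was at 26.8 RPKM in epithelium and 0.250 in stroma (4.18). Cdh11, a cadherin of mesenchymal cells, was at 0.796 and 16.3 RPKM (-3.57). Ctnnb1 at 38.6 and 19.9 RPKM, Ctnnd1 at 11.2 and 5.85 RPKM, and Ctnna1 at 9.96 and 5.80 RPKM, all catenins, were not called. Jup, which encodes plakoglobin, was at 3.61 and 0.879 RPKM (0.99), just under the call.

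The apical surface was epithelial in 15 of 17 mucin and apical membrane genes kept, with 0 called higher in stroma (median 2.90). Cd24a, a surface glycoprotein, was at 57.8 and 1.55 RPKM (4.23). The protease inhibitors Spint2 and Spint1 stood at 31.9 and 0.874 RPKM (3.83) and at 9.06 and 0.0659 RPKM (2.94), and their target proteases St14 and Prss8 were epithelial as well (3.13 and 3.21). Ezr, which links membrane to actin, was at 16.7 and 0.926 RPKM (2.90). Muc1, a mucin known to fall in the receptive mouse uterus, was low, at 2.31 and 0.131 RPKM (1.25). Podxl, an apical sialomucin also made by vessels, was not called, at 2.59 and 3.12 RPKM. Of 23 glycan enzymes kept, 8 were called higher in epithelium and 3 in stroma, against 11.9% and 18.9% of all genes. Gcnt3 and B3gnt5, which build branched and lacto-series glycans, stood at 26.8 and 0.0120 RPKM (4.48) and at 15.4 and 0.0961 RPKM (3.60). Fut2, which adds the terminal fucose of secretor antigens, was at 9.26 and 0.508 RPKM (2.47). Chsy1, a chondroitin synthase, lay on the stromal side at 0.307 and 3.98 RPKM (-2.23), as did Has2, the hyaluronan synthase, at 1 RPKM in stroma and listed at 0 in epithelium.

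Among 11 ion and water transport genes kept, 7 were called higher in luminal epithelium and 2 in stroma (median 2.77). The sodium pump beta subunit Atp1b1 was at 78.4 and 0.385 RPKM (5.54). Car2, a carbonic anhydrase, was at 46.7 and 0.752 RPKM (4.47), and Fxyd3, a relative of Fxyd4, at 21.5 and 0.229 RPKM (3.9). On the stromal side the chloride channel gene Ano1 stood at 6.10 RPKM against 0.175 (-2.90), and the bicarbonate transporter gene Slc4a4 at 1.54 against 0.186 (-1.40). Of 14 secreted protein genes kept, 9 were called higher in epithelium and 3 in stroma. Cxcl17, a chemokine, Ovgp1, oviductal glycoprotein, and Ltf, lactotransferrin, followed Wfdc2 at 10.4, 9.24 and 11.1 RPKM in epithelium (3.10, 3.04 and 3.01), and stood at 0.0788, 0.0109 and 0.225 RPKM in stroma.

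A list drawn up around progesterone response in the epithelium lay mainly on that side, a direction that the choice of epithelial genes favours. It shares Ltf with the secreted protein list and Muc1 with the apical list. Whether each member responds to progesterone was not tested. Of 18 kept, 14 were called higher in luminal epithelium and 2 in stroma (median 2.41). Il17rb, an interleukin receptor gene, was at 66.8 and 0.129 RPKM (5.61), and Irg1, the itaconate enzyme gene, at 36.9 and 0.0752 RPKM (4.84). Gata2, a progesterone-linked transcription factor, was at 43.6 and 2.12 RPKM (3.54). The immunophilin Fkbp4, a cochaperone of the progesterone receptor, was at 28.0 and 6.49 RPKM (1.65). Fst and Il13ra2, which were on the same list, were stromal, at 3.96 and 2.75 RPKM there, and listed at 0 in epithelium. The receptors themselves were not called on either side. Pgr stood at 3.87 RPKM in epithelium and 3.88 in stroma, a ratio of 0.997 (limits 0.841 to 1.18), and Esr1 at 7.79 and 6.02 RPKM (centred 0.02).

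Of 20 genes of the steroid list kept, 7 were called higher in epithelium and 3 in stroma, against 11.9% and 18.9% of all genes. Sult1d1, a sulfotransferase, was at 19.6 and 0.176 RPKM (3.83), and Hsd17b4, Ncoa2, Nrip1, Pgrmc2 and Fkbp5 ranged from 1.08 to 1.54. The stromal side held Hsd11b2, which inactivates glucocorticoids, at 0.524 and 12.4 RPKM (-3.43), and the glucocorticoid receptor Nr3c1 at 0.547 and 2.27 RPKM (-1.38).

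**Figure D2:**
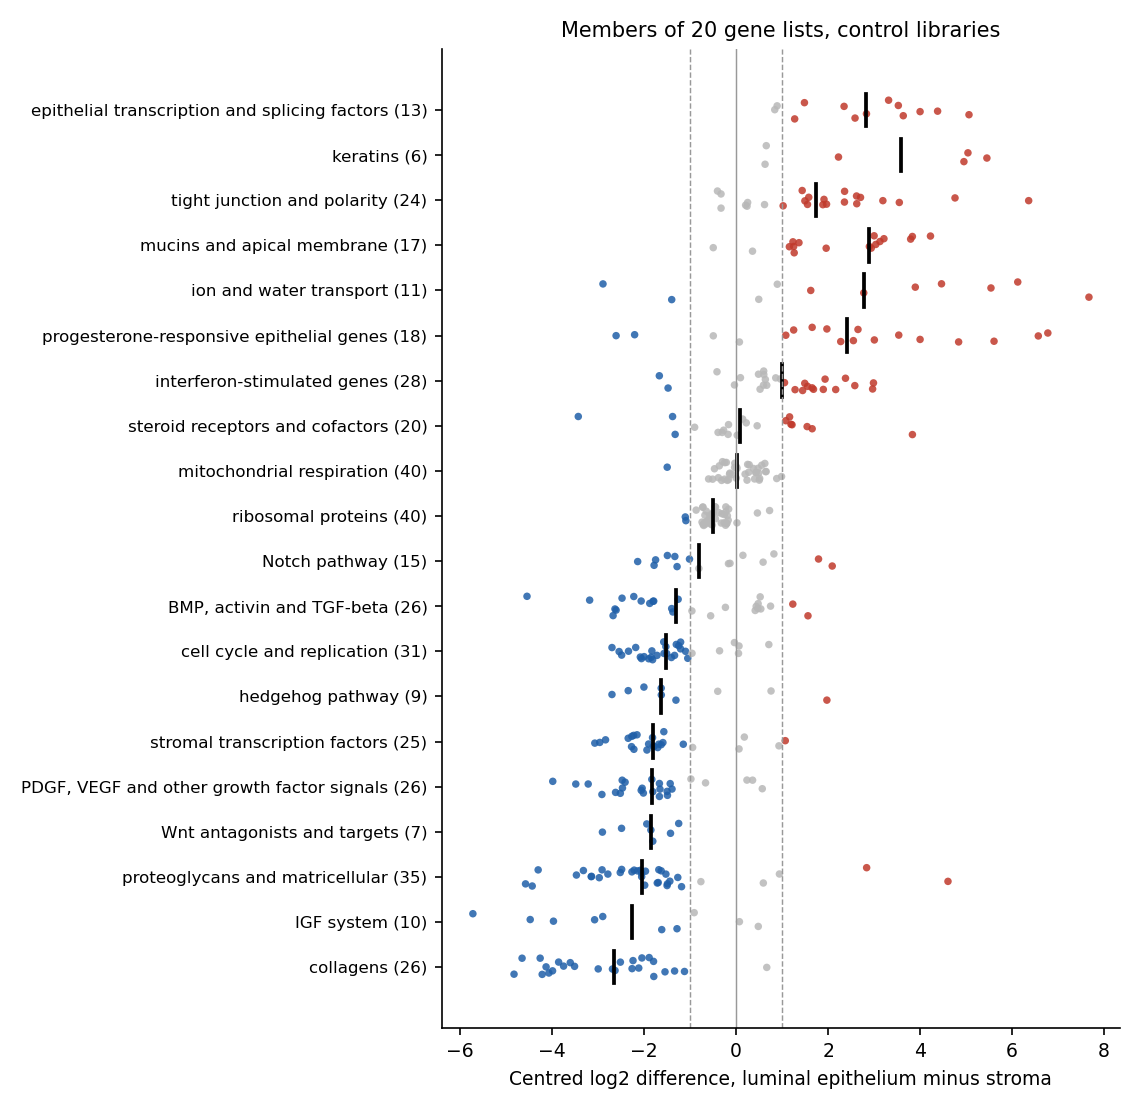
Centred log2 difference, luminal epithelium minus stroma, of every kept member of 20 gene lists in the control libraries, 1 point a gene, with the number kept in parentheses, a black bar at the list median and dashed lines at -1 and 1. Red points are called higher in epithelium and blue points in stroma. Collagens have a median of -2.66 and mucin and apical genes one of 2.90, and mitochondrial genes lie around 0.

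The matrix was stromal. Of 26 collagen chain and processing genes kept, 25 were called higher in stroma and 0 in epithelium (median -2.66), against 18.9% of all genes. The fibrillar chains Col1a2 and Col1a1 were at 45.9 and 32.9 RPKM in stroma and 2.01 and 1.38 RPKM in epithelium. The basement membrane chains Col4a1 and Col4a2 were at 30.9 and 17.9 RPKM in stroma and 0.562 and 0.463 RPKM in epithelium, and the collagen chaperone Serpinh1 was at 42.8 and 3.42 RPKM. The exception was P4ha2, a prolyl hydroxylase subunit, at 4.63 RPKM in epithelium and 1.88 in stroma (0.67).

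Among 35 proteoglycan and matricellular genes kept, 30 were called higher in stroma and 2 in epithelium (median -2.05). Sparc, Dcn and Fn1, a matricellular glycoprotein, a small proteoglycan and fibronectin, stood at 54.1, 42.7 and 33.5 RPKM in stroma and at 1.84, 1.49 and 1.15 RPKM in epithelium. The 2 on the epithelial side were Ctgf, a secreted matricellular factor, at 40.1 RPKM in epithelium and 0.370 in stroma (4.61), and the cell surface proteoglycan Sdc4 at 35.3 and 3.13 RPKM (2.84). Ctgf was listed alongside Cyr61, its close relative, which lay on the stromal side at 0.0892 and 1.01 RPKM (-1.19).

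Of 28 integrin and laminin genes kept, 4 were called higher in luminal epithelium and 11 in stroma, against 11.9% and 18.9% of all genes. Lama5, Itgb6 and Itga9 were epithelial: Lama5 at 7.24 and 1.51 RPKM (1.41), Itgb6 at 2.19 and 0.00881 RPKM (1.36), and Itga9 at 7.76 and 0.558 RPKM (2.19). Lama2, Lama4, Lamb1 and Lamc3 were stromal, between -2 and -3.14, as were the linker genes Nid1 at 0.562 and 24.6 RPKM (-4.33) and Hspg2, perlecan, at 0.266 and 8.44 RPKM (-3.20). The shared chain Itgb1 was on both sides at 8.22 and 12.9 RPKM (-0.90). Of 25 matrix protease and inhibitor genes kept, 16 were called higher in stroma and 4 in epithelium. Mmp2, gelatinase A, was at 0.736 and 15.8 RPKM (-3.58) and its inhibitor Timp2 at 0.156 and 6.86 RPKM (-3.06). Plat, the tissue plasminogen activator, and the membrane protease Tmprss2 were epithelial, at 40.9 and 2.72 RPKM (3.20) and at 9.16 and 0.161 RPKM (2.83).

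Stromal transcription factors followed the matrix. Of 25 kept, 20 were called higher in stroma and 1 in epithelium (median -1.8). Hand2, the progesterone-induced factor of uterine stroma, was at 4.80 RPKM in stroma and 0.524 in epithelium (-2.23). Osr2 was at 12 and 0.902 RPKM (-3.07), Tcf4 at 9.73 and 0.692 RPKM (-2.97), Ebf1 at 5.24 and 0.0726 RPKM (-2.84), and Twist2, a mesenchymal factor, at 4.80 and 0.478 RPKM (-2.27). The homeobox cofactor Meis1 was the member on the epithelial side, at 5.34 RPKM there and 1.45 in stroma (1.07), while its relative Meis2 was at 0.00287 and 1.66 RPKM (-1.71). Foxo1 and Cebpb, factors of decidualization, were not called (0.06 and 0.93).

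Hox genes divided by cluster. Of 39 found, 16 reached 1 RPKM. All 8 called higher in stroma lay in the HoxA and HoxD clusters, and all 4 called higher in epithelium lay in HoxB. Hoxa10 and Hoxa11, required in the stroma for implantation, were at 22.2 and 10.9 RPKM in stroma and 0.721 and 0.408 RPKM in epithelium (-4.06 and -3.38). Hoxa9, at 1.89 and 0.0941 RPKM, was lower. In HoxD the stromal levels ran from 3.06 RPKM for Hoxd4 to 6.67 for Hoxd10, with the epithelial levels at or below 0.284 RPKM. The HoxB genes were reversed: Hoxb6 at 9.71 RPKM in epithelium and 0.514 in stroma (2.52), Hoxb7 at 4.79 and 0.272 RPKM (1.89), Hoxb2 at 3.10 and 0.457 RPKM (1.19) and Hoxb8 at 2.15 and 0.103 RPKM (1.21). Hoxb3, Hoxb4, Hoxb5 and Hoxb9 lay between 0.73 and 0.94, below the call, and passed it without centring. Summed over each cluster, HoxA stood at 1.22 RPKM in epithelium and 35.3 in stroma, HoxB at 27.0 and 2.35 RPKM, and HoxD at 0.666 and 24.6 RPKM. No HoxC gene reached 1 RPKM. In the pair labelled knockout the 3 HoxA and 5 HoxD genes were again below 0 and 7 of the 8 HoxB genes above 0, the other being Hoxb9 (-0.37).

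**Figure D3:**
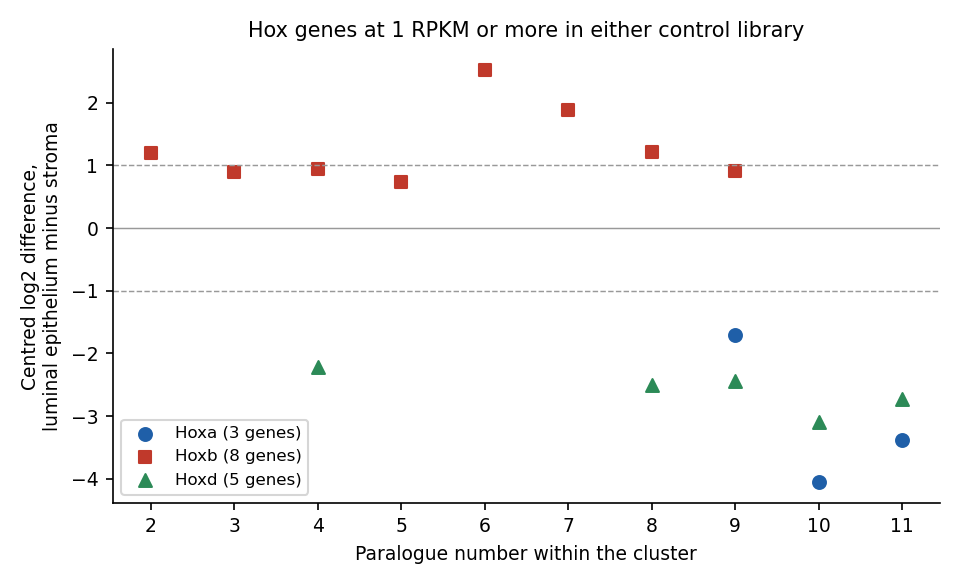
Centred log2 difference, luminal epithelium minus stroma, of the 16 kept Hox genes in the control libraries against their paralogue number, with circles for HoxA, squares for HoxB and triangles for HoxD. The 8 HoxB genes lie above 0 and the 8 HoxA and HoxD genes below -1, also where paralogue numbers are the same, as for Hoxb9, Hoxa9 and Hoxd9.

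Among other homeobox genes, 18 were kept, 6 called higher in epithelium and 4 in stroma, against 11.9% and 18.9% of all genes. Dlx5 and Dlx6, a linked pair, were at 7.02 and 5.04 RPKM in epithelium, with Dlx5 listed at 0 in stroma and Dlx6 at 0.0298 RPKM. Six3 was at 4.53 and 0.235 RPKM (1.86), and Barx2 at 2.54 RPKM and listed at 0 in stroma. On the stromal side Pknox2 was at 0.270 and 2.19 RPKM (-1.63) and Tgif2 at 0.190 and 1.57 RPKM (-1.41). In the pair labelled knockout Six3 was at -0.42 and Barx2 at 0.65.

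In the hedgehog pathway 9 of 19 genes were kept, 1 called higher in epithelium and 6 in stroma. The ligand gene Ihh was at 3.84 RPKM in luminal epithelium and listed at 0 in stroma (chromosome 1, 74991892 to 74998225, mm9). The receptor gene Ptch1 was at 4.22 RPKM in stroma and 1.59 in epithelium (-1.31). The transducer Smo was at 4.50 and 0.687 RPKM (-2.01), the coreceptor Gas1 at 4.00 and 0.212 RPKM (-2.35), the transcription factor and target Gli1 at 4.99 and 0.135 RPKM (-2.70), and the stromal responder Nr2f2 at 7.65 and 2.44 RPKM (-1.63). Cdon, another coreceptor, leaned to the epithelium without being called (0.76), and Sufu, the inhibitor, was even (-0.40). The same genes were on the same sides in the pair labelled knockout, with Ihh at 7.89 RPKM in epithelium and 0.0227 in stroma.

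Of 6 Wnt ligand and secretion genes kept, 3 were called higher in epithelium and 0 in stroma, and the list's median of 1.19 turned to -0.34 with no minimum level. Wnt7a, a marker of luminal epithelium, was at 3.37 RPKM and listed at 0 in stroma, Wnt11 at 14.3 and 0.00957 RPKM (3.62), and Porcn, which acylates Wnt proteins, at 8.13 and 0.402 RPKM (2.40). Wnt5a was present on both sides, at 10.5 and 5.34 RPKM (0.55), and Wnt16 leaned to the stroma (-0.83). Among the receptors, Fzd6 at 28.7 and 1.71 RPKM (3.15) and Lgr4 at 4.10 and 0.667 RPKM (1.31) were epithelial, and Fzd1 at 0.221 and 5.15 RPKM (-2.63), Fzd2 at 0.558 and 3.79 RPKM (-1.92) and Fzd4 at 0.0501 and 1.19 RPKM (-1.36) stromal. Of 25 antagonist and target genes found, 7 were kept, and all 7 were called higher in stroma (median -1.85). Their summed level was 1.54 RPKM in epithelium and 23.0 in stroma, so the level filter itself favoured stromal members. Over the 25 found the median was -0.61, with sums of 4.22 and 28.8 RPKM. The decoy receptor genes Sfrp2, Sfrp4 and Frzb were at 8.07, 2.43 and 1.18 RPKM in stroma, and Dkk3, Apcdd1, Lef1 and Ccnd1 ranged from -1.25 to -2.49.

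Of 10 EGF family genes kept, 3 were called higher in epithelium and 1, Lrig3, in stroma. Areg, an epithelial EGF receptor ligand, was at 6.73 RPKM and listed at 0 in stroma. Erbb3 was at 7.96 and 0.0567 RPKM (2.78) and Erbb2 at 3.56 and 0.646 RPKM (1.17), whereas Egfr was at 4.14 RPKM in epithelium and 4.89 in stroma (-0.50). Of 7 FGF genes kept, 3 were called higher in epithelium and 0 in stroma. Fgfr2 was at 27.9 and 0.0840 RPKM, a ratio of 332 (limits 193 to 628), Fgf1 at 5.70 and 0.0381 RPKM (2.39), and the downstream factor Etv5 at 7.77 and 0.602 RPKM (2.15). The feedback genes Dusp6, Spred1 and Spry2 lay between -0.07 and 0.71. In the pair labelled knockout Etv5 was at -0.06.

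LIF, secreted at this stage in mice, acts through Lifr and gp130 (Il6st) on the epithelium. Lif itself did not reach 1 RPKM, at 0.130 RPKM in epithelium and listed at 0 in stroma. Lifr and Il6st did not separate the sides, at 1.68 and 1.2 RPKM and at 8.95 and 10.4 RPKM. Among the kinases Jak2 was at 31.4 RPKM in epithelium and 1.26 in stroma (3.54), and Tyk2 was not called at 1.08 and 1.27 RPKM (-0.42). Jak1 was at 4.96 and 8.76 RPKM (-1.01), a value that fell below the call without centring (-0.71) and under 2 of the other 3 scalings. The downstream factor Stat3 was at 14.4 and 4.20 RPKM (1.26). The related ligand gene Ctf1 was epithelial at 5.88 and 0.140 RPKM (2.29), and the interleukin-11 receptor Il11ra1, needed for decidualization, was stromal at 0.470 and 4.28 RPKM (-2.15).

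**Figure D4:**
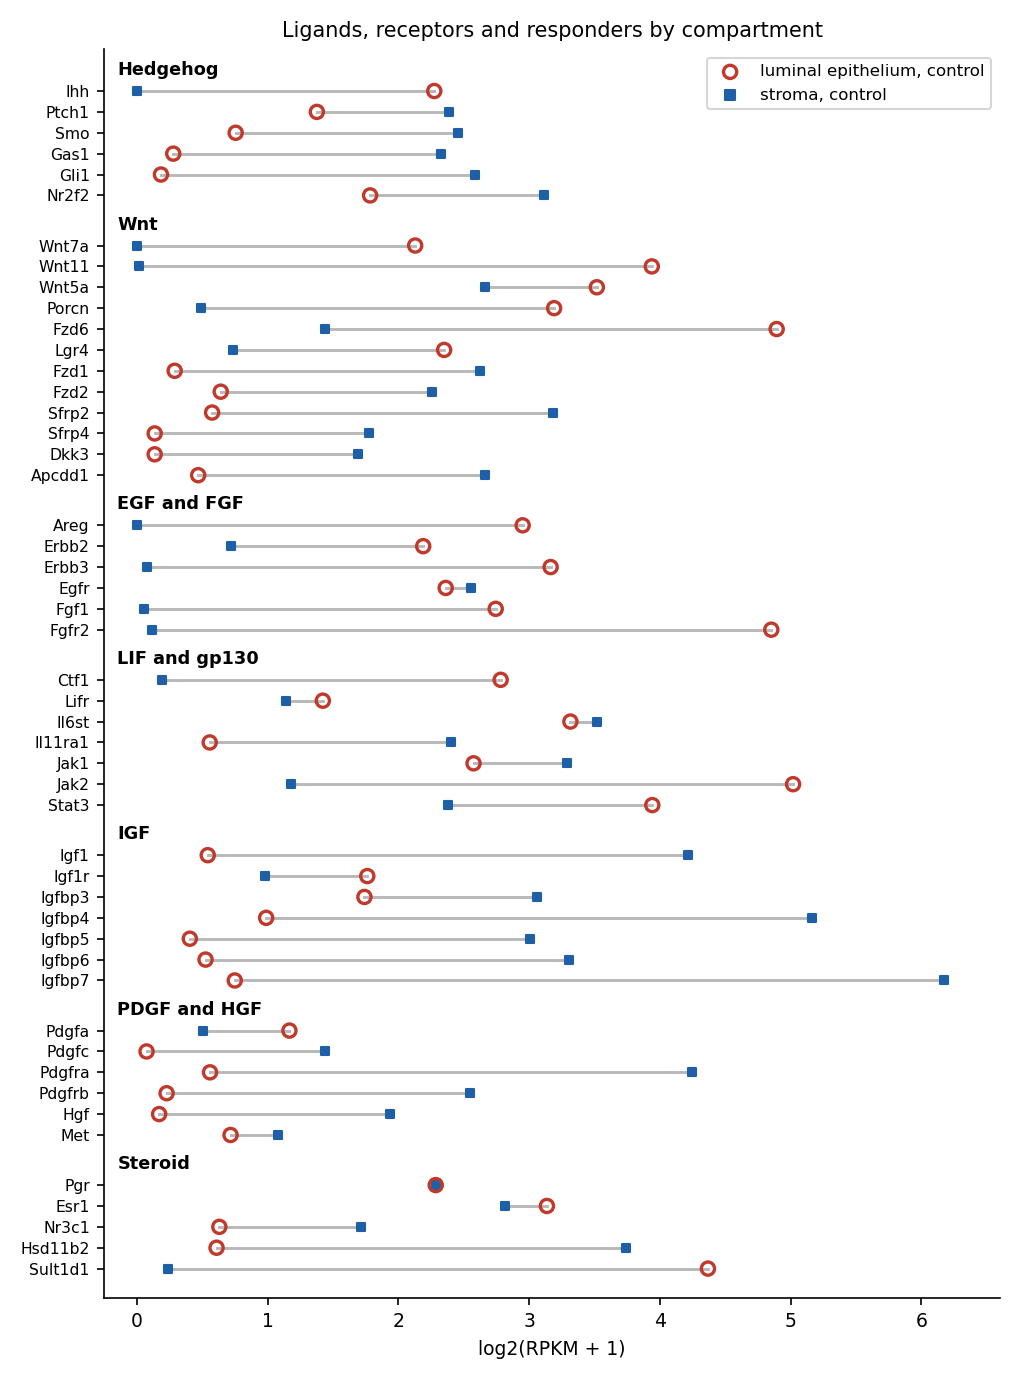
Levels of 49 ligand, receptor and responder genes as log2(RPKM + 1) in the luminal epithelium control (open red circles) and the stroma control (blue squares), joined by a line for each gene. Ihh, Wnt7a and Areg lie at 0 in stroma, Igfbp7 and Igfbp4 lie far to the right in stroma, and the symbols of Pgr coincide.

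In the IGF system 7 of 10 genes kept were called higher in stroma and 0 in epithelium (median -2.26). Igf1 was at 0.455 and 17.5 RPKM (-3.97), while its receptor Igf1r was present on both sides at 2.39 and 0.971 RPKM (0.48). The binding protein genes Igfbp4, Igfbp6, Igfbp5 and Igfbp3 were at 34.9, 8.86, 7.02 and 7.32 RPKM in stroma and between 0.323 and 2.34 RPKM in epithelium. Of 26 PDGF, VEGF and related genes kept, 21 were called higher in stroma and 0 in epithelium (median -1.82). The receptors Pdgfra and Pdgfrb were at 18.0 and 4.84 RPKM in stroma and 0.472 and 0.170 RPKM in epithelium (-3.99 and -2.62). Hgf was stromal at 0.124 and 2.82 RPKM (-2.06), with its receptor Met at 0.642 and 1.11 RPKM (-0.67). Several members of this list, such as Kdr, Tek and Flt1, are endothelial, and the summed endothelial level was 61.1 RPKM in stroma and 0.711 in epithelium, as given above. The ligand gene Vegfa was even, at 3.41 and 2.05 RPKM (0.24).

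For BMP, activin and TGF-beta signals, 26 genes were kept, 14 called higher in stroma and 2 in epithelium. Fstl1, a secreted BMP-binding glycoprotein, was at 0.276 and 23.2 RPKM (-4.55), Gdf7 at 1.01 and 9.16 RPKM (-2.63), Tgfbr3 at 0.112 and 4.04 RPKM (-2.48), and Tgfbr2 at 3.59 and 8.67 RPKM (-1.38). The type I receptor Bmpr1a was not called at 4.41 and 2.16 RPKM (0.47), and neither were Acvr1 (0.44) and Tgfbr1 (-0.23). Bambi, a decoy receptor, and Id2, a BMP target, were epithelial at 4.43 and 0.494 RPKM (1.56) and at 14.6 and 4.40 RPKM (1.23). Of 15 Notch genes kept, 7 were called higher in stroma and 2 in epithelium, against 18.9% and 11.9% of all genes. Notch3, the receptor of mural cells, was at 0.0874 and 2.89 RPKM (-2.14) and Rbpj, the pathway's DNA-binding factor, at 1.72 and 6.43 RPKM (-1.75). Notch1 was not called (0.59). The target Hes1 was at 5.19 and 0.451 RPKM (1.79) and the glycosyltransferase Rfng at 11.5 and 1.38 RPKM (2.09), both epithelial.

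Of 27 semaphorin, ephrin and slit pathway genes kept, 4 were called higher in epithelium and 11 in stroma, and without centring 8 and 8. With centring, the shares of all genes were 11.9% and 18.9%. Plxnb1 was at 7.48 and 0.872 RPKM (1.88) and its ligand Sema4d at 5.65 and 1.03 RPKM (1.42), both epithelial. Efnb2 was at 5.99 and 0.601 RPKM (1.82), and Ephb4, a receptor for this ephrin, at 0.942 and 3.59 RPKM (-1.54) on the stromal side. Plxnd1, Robo4, Robo1 and Neo1 were stromal, between -1.33 and -2.24.

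Of 11 prostaglandin genes kept, 4 were called higher in epithelium and 2 in stroma, against 11.9% and 18.9% of all genes. Pla2g4a, which releases arachidonic acid, was at 21.8 and 0.370 RPKM (3.76), the cyclooxygenase gene Ptgs1 at 14.8 and 0.849 RPKM (2.80), and the receptor Ptger2 at 8.44 and 0.0916 RPKM (2.81). The receptor Ptger3 was at 1.58 RPKM in stroma and listed at 0 in epithelium. Of 14 retinoid genes kept, 2 were called higher in epithelium and 5 in stroma, against 11.9% and 18.9% of all genes. Rdh10, which makes retinal, was epithelial at 18.5 and 1.13 RPKM (2.90). Aldh1a2, which makes retinoic acid from it, was stromal at 0.151 and 5.74 RPKM (-2.85), and Cyp26a1, which degrades retinoic acid, was at 4.96 RPKM in epithelium and listed at 0 in stroma. Receptors Rara, Rarg, Rxra and Rxrb lay between -0.27 and 0.12.

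Cell cycle genes were higher in stroma in 25 of 31 kept, with 0 called higher in epithelium (median -1.53). Mki67 was at 0.470 and 6.75 RPKM (-2.70), a ratio of 14.4 in favour of stroma (limits 9.99 to 21.5), and Cdc20, Birc5 and Ccnb2 followed between -2.34 and -2.54. Top2a differed less, at 4.67 and 8.87 RPKM (-1.10), and the inhibitors Cdkn1b and Cdkn1c were even (0.05 and -0.04). The list's median was -1.59 in the pair labelled knockout. Housekeeping lists gave a reference for the scaling. Of 40 mitochondrial respiration genes, 0 were called higher in epithelium and 1 in stroma (median 0.01), and of 40 ribosomal protein genes, 0 and 2 (median -0.50). The mitochondrial median ran from -0.02 to 0.31 over the scalings, and the ribosomal median from -0.57 to -0.20. Endoplasmic reticulum folding genes had 0 epithelial and 3 stromal calls among 23, Xbp1 the first of them at 4.89 and 10.1 RPKM (-1.22).

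Of 18 chemokine, cytokine and receptor genes kept, 9 were called higher in stroma and 3 in epithelium (median -1.12), though the median of the members at 5 RPKM or more was 0.27. Ccl8 was at 0.971 and 11.6 RPKM (-2.97), Cxcl12 at 0.0569 and 4.35 RPKM (-2.64), and the stromal cytokine Il15 at 0.151 and 1.57 RPKM (-1.46). Tnfrsf21 and Il1r1 were epithelial receptors, at 25.1 and 1.61 RPKM (3.02) and at 11.7 and 0.813 RPKM (2.51). In the complement list the first component genes C1qa, C1qb, C1qc, C1ra and C1s lay on the stromal side, from -2.34 to -3.63, and Cfb at 12.5 and 0.710 RPKM (2.68) and Cd55 at 10.3 and 1.01 RPKM (2.18) on the epithelial side. The leukocyte markers given above moved with the first of these, and their part in it was not tested. Immediate early genes, which respond to handling, showed 3 epithelial and 4 stromal calls among 15, against 11.9% and 18.9% of all genes (list median 0.20). The members ran both ways, with Junb at 9.67 and 1.10 RPKM (2.05) and Myc at 0.283 and 5.02 RPKM (-2.53).

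The listed interferon-stimulated genes lay mainly on the side of the luminal epithelium control. Of 28 kept, 14 were called higher in epithelium and 2 in stroma (median 1.01). The guanylate-binding protein genes, a family counted after the values were seen, went the other way. This family overlaps the list, since Gbp2 is on both. Of 8 kept, 5 were called higher in stroma and 0 in epithelium (median -1.14). Ifit1 was at 13.7 and 0.508 RPKM (2.99), Irf7 at 16.7 and 1.41 RPKM (2.58), Isg15 at 11.7 and 0.989 RPKM (2.38), and the antiviral enzyme Oas2 at 6.65 and 0.384 RPKM (2.17). The 28 listed genes had a median of -0.21 in the pair labelled knockout, where 17 members were kept, 1 called higher in epithelium and 3 in stroma. There Ifit1 was at -0.21, Isg15 at -0.56 and Oas2 at -0.23. With 1 library of each compartment and genotype, animal, library and genotype cannot be told apart in this difference between the pairs, which was not tested.

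The contrast as a whole was much alike in the pair labelled knockout. There 9559 genes were kept, 1273 called higher in epithelium (13.3%) and 1647 in stroma (17.2%). Of the 1107 epithelial calls of the control pair, 854 (77.1%) were called the same way and 2 the opposite way, and of the 1768 stromal calls, 1284 (72.6%) and 22. As shares of the calls of the pair labelled knockout, the shared genes were 67.1% and 78.0%. Among all genes at 8-fold or more in the control pair, 154 of 161 epithelial and 144 of 225 stromal genes were called the same way again. Among the named genes of these sets, 141 of 143 epithelial and 105 of 106 stromal genes were. The 24 opposite calls comprised 16 small RNA or unnamed models and 8 named genes, all 8 on the stromal side in the control pair. Of these, Id1 and Id3, inhibitors of bHLH factors, and the Wnt receptor gene Fzd4 were on the gene lists. Id1 was at 0.917 RPKM in epithelium and 2.73 in stroma in the control pair, and at 27.8 and 4.29 RPKM in the other. Some epithelial genes had a wider lead in the pair labelled knockout. Ovgp1 was at 3.04 in the control pair and 6.06 in the other, and Sprr2f, an oestrogen-induced small proline-rich protein gene, at 1.86 and 6.29. The luminal epithelium library labelled knockout was estimated to be 14.4 times deeper than its control, and the part of depth in these differences was not tested.

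**Figure D5:**
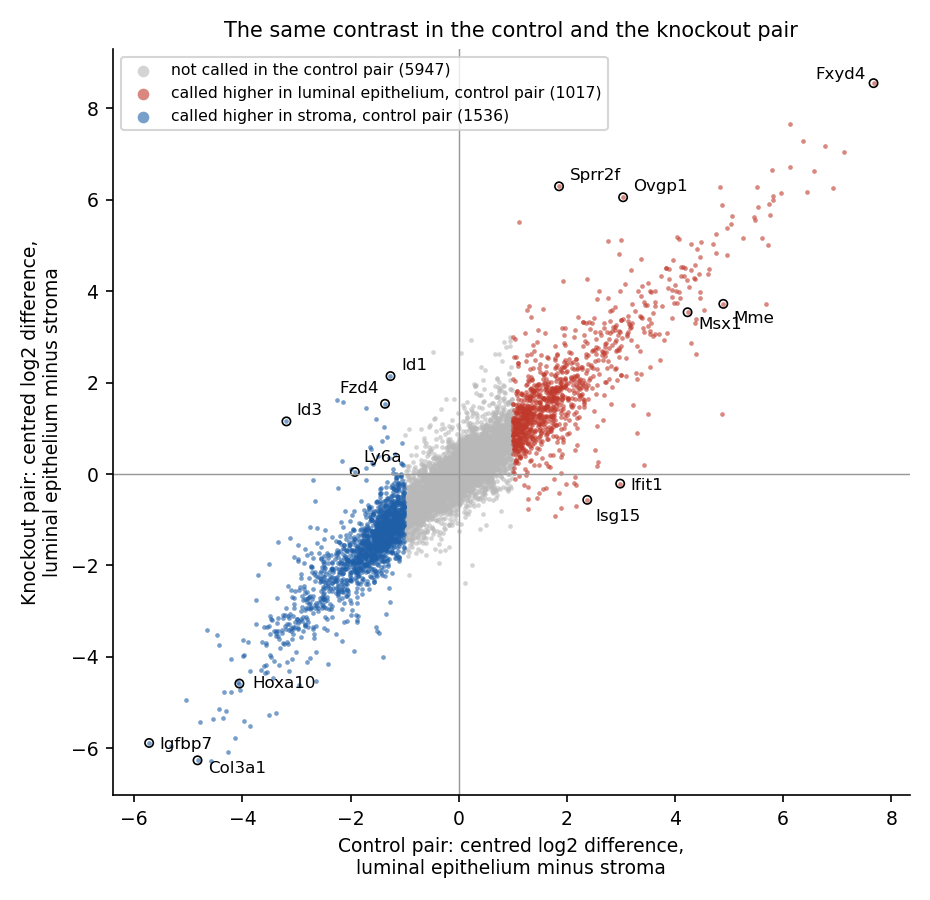
Centred log2 difference, luminal epithelium minus stroma, in the control pair (horizontal) and in the pair labelled knockout (vertical), for the named genes kept in the control pair, coloured by their call there. Most genes lie along the diagonal. Id1, Id3 and Fzd4 lie in the upper left, and Ifit1 and Isg15 lie to the right with vertical values of -0.21 and -0.56.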

How the data were processed

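RNA from laser-captured luminal epithelium and stroma was isolated with a PicoPure kit and sequenced as stranded total RNA libraries after removal of ribosomal RNA, per the labels' protocols. The RPKM values were computed by the authors, per the file headers, 1 table for each compartment. The submitters' processing notes name Cufflinks 2.0.2, TopHat2 2.0.5, TopHat and CASAVA 1.8.2, and the build mm9; roles and settings are not given in the sources used here. No other column of per-sample values was present (0).

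The 2 control columns were joined by gene. A pseudocount of 1 RPKM understates differences of low genes. Genes below 1 RPKM in both libraries (13897) were left out, the highest of them at 0.999 RPKM, and the lowest gene kept stood at 1.00. The smallest epithelial difference called was 1.0004 and the largest not called 0.9992, and 616 genes lay within 0.1 of the call. With 1 library a group no test was run. The 40 gene lists, 9 marker lists and the genes compared were chosen with earlier results of these data known. Named were Msx1 and Msx2, the first 15 genes each way among those at 5 RPKM or more (small RNA and unnamed models left out), for each list up to 4 members that differed most, the kept members of the signalling, steroid, transcription factor and homeobox lists, and defining markers. Members named because they did not separate the sides, the relatives set beside a named gene, and further members of a list were picked with values in view.

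Depth was estimated from the spacing of low RPKM values multiplied by transcript length less 200 bases (GENCODE vM21, another build, used for length only, known for 98.7% of kept genes). Of these values 62.6% (epithelium) and 61.7% (stroma) lay within 0.2 of a whole read, where evenly spread values would give 40%, so the depths are approximate. Promoter windows were matched by RefSeq identifier. The steps were tested on simulated data. The tools were scipy 1.17.1, matplotlib 3.10.9, pandas 2.3.3 and numpy 2.4.6 under Python 3.11.15. Some members of the lists are counted but not reported here by name.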

Additional observations from a re-analysis of the deposited data

Results flagged for a closer look

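Genes of the lists or ranked genes whose side was opposite in the control pair and in the pair labelled knockout were Fzd4, Id1 and Id3. With 1 library a group the difference between the pairs was not tested. Fzd4 had a centred log2 difference, epithelium minus stroma, of -1.36 in the control pair and 1.54 in the pair labelled knockout. Id1 stood at -1.26 and 2.14. Id3 was listed at 0 in the luminal epithelium control and stood at -3.19 and 1.15. The stromal levels in the control and the labelled knockout were 1.19 and 0.933 RPKM for Fzd4, 2.73 and 4.29 RPKM for Id1 and 6.39 and 7.80 RPKM for Id3. The epithelial levels were 0.0501 and 5.91 RPKM for Fzd4, 0.917 and 27.8 RPKM for Id1, and 0 and 23.1 RPKM for Id3. The epithelial library of the labelled knockout was also 14.4 times deeper by the estimate used here, and the part of depth in these values was not tested.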

How the results depend on the processing

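No paired analysis was possible because each group compared has 1 library and so shares 1 replicate number, and the labels do not tie the compartments to a mouse. A fit over all 4 libraries with genotype as a block, which would leave 1 residual degree of freedom, was not run. Counts of genes called higher in luminal epithelium and in stroma, 1107 and 1768 in the control pair and 1273 and 1647 in the pair labelled knockout, were recomputed under 11 alternatives, 1 of them (without genes the authors' table marks as not estimable) added after seeing the data. With a pseudocount of 5 RPKM the counts were 457 and 422 in the control pair and 560 and 378 in the other. With a pseudocount of 0.1 RPKM the epithelial count of the control pair was 1734, and without centring it was 1698. A minimum of 5 RPKM gave 500 stromal calls in the control pair and 456 in the other. A threshold of 2 gave 373 and 556 in the control pair and 463 and 505 in the other. The other 32 of 44 recomputed counts stayed within 1.5 times. No centred difference of the 766 genes that could be named reversed a call under the 10 alternatives that keep the threshold, and 341 of 7266 recomputed values fell below it. Of 480 recomputed list medians, 5 called medians changed sign. With no minimum these were ion and water transport (-0.14), Wnt ligands (-0.34), gland markers (-0.31) and mesothelium markers (-0.24), where genes near 0 on both sides enter the median. With a minimum of 5 RPKM it was chemokines and cytokines (0.27), where fewer members remain. The depth of the luminal epithelium control limits statements on genes low there, since 342 of the 1768 stromal calls were listed at 0 in it.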

Other observations

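Gene families seen after the values were known showed further compartment patterns. Of 62 histone genes kept, 58 were called higher in stroma and 0 in luminal epithelium (median -2.33), against 18.9% of all genes, and under other scalings the stromal calls numbered 52 to 57. Hist1h3c was at 3.29 RPKM in epithelium and 45.5 in stroma. These libraries were made from total RNA, which retains histone transcripts without a poly(A) tail. Of 17 vacuolar ATPase genes kept, 7 were called higher in epithelium and 0 in stroma, and 17 of 17 lay above 0 under each scaling run. Atp6v1d and Atp6v1a, subunits of the proton pump, were at 14.0 and 15.2 RPKM in epithelium and 1.8 and 2.64 RPKM in stroma. The cathepsin Ctsb, a lysosomal protease like Ctsd, was at 47.2 and 10.4 RPKM (1.78). The cathepsin family as a whole did not follow them: of 12 kept, 2 were called higher in epithelium and 6 in stroma (median -1.08).

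Of 14 glutathione transferase genes kept, 5 were called higher in epithelium and 3 in stroma, where all genes gave 11.9% and 18.9%. Gstm2, Gsto1 and Gstm1 were at 332, 318 and 185 RPKM in epithelium and 4.89, 3.9 and 7.9 RPKM in stroma. Gstk1 and Gstt1 were at 2.52 and 1.83 RPKM in stroma and listed at 0 in epithelium. Of 123 solute carrier genes kept, 27 were called higher in epithelium and 16 in stroma, read against the same shares of all genes. The zinc importer gene Slc39a4 stood at 57.3 and 0.618 RPKM (4.87), and the glucose transporter gene Slc2a3 at 34.2 and 0.746 RPKM (4.03). The nucleoside transporter gene Slc29a1 was stromal at 0.194 and 10.3 RPKM (-3.54).

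Ly6a, listed as a marker of luminal epithelium, was at 6.58 RPKM there and 22.3 in stroma (-1.92) in the control pair, and at 7.89 and 5.99 RPKM (0.05) in the pair labelled knockout.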
